A study of Mus musculus with 6 samples.

Results

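Homer1, Nptx1, Nptx2, Pcsk1, Inhba, Ptgs2, Plk2, Rgs2, Gadd45b and Nrn1 are late activity-response effector genes. They were taken by symbol from the 14824 genes of the series' table, where all 10 were present, and all 10 passed the filter on low counts that left 13747 genes for testing. Bulk RNA-seq had been performed on the primary somatosensory (S1) cortex of wild-type (WT) C57B6 mice at postnatal day 21. The 3 WS samples had the treatment whisker stimulation and the 3 NS samples (titled NW control) had none, and the labels name no transgene, drug or deletion in either group. The right whiskers were brushed by hand every day, and tissue was taken 90 min after the last session. In the study's scheme the side of the cortex without stimulation (NS) was the control, and its legends give as many mice for this RNA-seq as there were libraries in a group. NS and WS libraries may thus share animals, but no label ties a sample to an animal, so p-values measure only the spread between these samples. The tissue was not sorted and the labels list neurons, glia and vascular cells together.

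When a neuron fires, calcium and kinase signals first switch on immediate early genes such as Fos and Arc, many of them genes of transcription factors. A later set of genes follows, partly driven by those factors and partly by CREB, and its products act at synapses, in secretory vesicles or as brakes on signalling. Homer1, Nptx2, Pcsk1, Inhba and Ptgs2 are much used to read recent activity in cortex.

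Counts over the listed genes summed to between 15660395 and 17276168 per library. In bulk tissue, fewer cells of a type and less RNA per cell cannot be told apart. All 10 markers of cortical excitatory neurons were detected, with a summed level of 2884 to 3054 CPM (counts scaled by the TMM-normalized library total) in NS and 2570 to 3266 in WS. The log2 fold change of WS over NS was above 0 for 8 of 8 astrocyte, 8 of 8 endothelial, 6 of 6 oligodendrocyte and 8 of 8 striatal markers, and for 6 of 7 interneuron and 5 of 6 microglia markers. It was above 0 for 5 of 10 excitatory neuron, 3 of 5 hippocampal and 2 of 5 choroid plexus markers. By edgeR's quasi-likelihood test 0 markers of any list were called, and only the interneuron marker Slc32a1 (log2 fold change 0.20) was under 0.05 before adjustment. In the fit blocked by replicate number, 4 of the 6 oligodendrocyte markers (Mbp, Mog, Mag and Mobp) and the striatal marker Drd2 were under 0.05 before adjustment, beside 1.77% of all tested genes, and none after it. All 6 oligodendrocyte markers were higher in WS in 3 of 3 same-numbered pairs, beside 9.82% of all tested genes. Summed levels for astrocytes were 4725, 4776 and 4447 CPM in NS and 4707, 4507 and 5557 in WS, where only replicate 3 was above all NS libraries. For oligodendrocytes they were 7949 to 11470 in NS against 9436 to 12700 in WS. For endothelial cells they were 147.0 to 150.4 against 154.6 to 177.2, and for microglia 361.4 to 375.0 against 376.3 to 389.4. For interneurons they were 1030 to 1063 against 1092 to 1183, and for the hippocampal list 199.1 to 233.6 against 201.9 to 255.6. The striatal sums were 343.7, 468.7 and 479.6 in NS and 351.7, 719.5 and 334.0 in WS, where WS replicate 2 stood apart. All 8 striatal markers were lower in WS replicate 3 than in NS replicate 3. Choroid plexus markers (5 tested) summed to 33.29, 48.93 and 79.19 in NS and 10.19, 93.46 and 51.79 in WS, highest in WS replicate 2 and lowest in WS replicate 1, and Otx2 among them was under 0.05 before adjustment in the blocked fit. WS replicate 1 stood apart in how counts depended on the GC content of the transcript. The part of these markers in the values of the late genes was not tested.

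To compare levels between genes, CPM was divided by the length in kilobases of all exons of the gene, joined over its transcripts. Nrn1, which encodes the membrane-anchored neurite growth protein neuritin, had the highest level per length, 137 CPM per kilobase in NS and 134 in WS, above that of 97.9% of the tested genes. The secreted pentraxins Nptx1 and Nptx2 followed with 80.4 and 46.2 CPM per kilobase in NS, and the kinase gene Plk2 with 34.8. The scaffold gene Homer1 (14.6), the G-protein regulator gene Rgs2 (13.3) and the convertase gene Pcsk1 (12.1) formed a middle group in NS. Over all 6 libraries, NS and WS together, neighbours in this group overlapped and so could not be ordered. In NS alone, every Homer1 library (14.5 to 14.8) was above every Rgs2 library (12.7 to 13.7). Gadd45b (6.19), Ptgs2 (3.67) and Inhba (0.655) were lowest in NS. Every other pair of neighbours in this order was separated over all 6 libraries, the lowest library of Nrn1 (128) above the highest of Nptx1 (81.9) for example. The order of the group means in WS was the same. This order holds for the joined exon length only and was not computed with another length. The joined exons of Homer1 had 11976 bases and its longest transcript 5713, and those of Plk2 4491 against 2800. For Nptx2 both lengths were 2536 bases.

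**Figure D1:**
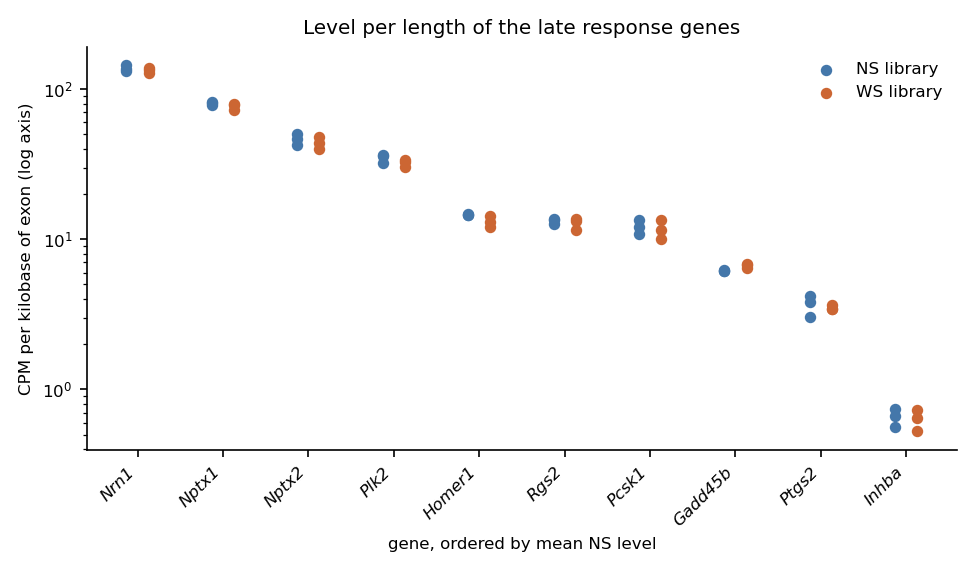
Level of each late response gene in CPM per kilobase of exon (log axis), genes ordered by their mean in NS, each point 1 library (blue NS, orange WS, n = 3 each). Levels ran from about 137 for Nrn1 to 0.655 for Inhba in NS, and the WS points lay at nearly the same heights as the NS points.

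The cyclic AMP response element is the site bound by CREB, and its letters were searched in RefSeq promoter windows (GRCm38.p6, 250 bases before to 50 after the start). The table matched 7 of the 10 genes, all but Nptx1, Nptx2 and Nrn1. The full element TGACGTCA stood in the windows of Pcsk1 and Plk2, against 1.79% of the 32851 windows of all genes. The shorter core TGACG, or CGTCA on the other strand, which is also part of the full element, stood in those of 5 of the 7 (Homer1, Pcsk1, Plk2, Ptgs2 and Rgs2), against 20.8% of all windows. The AP-1 motif TGANTCA was in none of the 7, against 7.81% of all windows, and the CArG box, which binds serum response factor, was in none, against 1.63%. These are matches of letters, not measured binding. The 120 bases directly before the start are shown for the genes of the set with the full element and for Homer1, whose window held the core 3 times, with every core or full element in capitals. They lie at chr13:93303637-93303756 (Homer1), chr13:75089737-75089856 (Pcsk1) and chr13:110394924-110395043 (Plk2), all on the plus strand.
Homer1: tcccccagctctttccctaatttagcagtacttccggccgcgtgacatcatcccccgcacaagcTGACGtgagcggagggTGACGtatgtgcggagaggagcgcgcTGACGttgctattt
Pcsk1: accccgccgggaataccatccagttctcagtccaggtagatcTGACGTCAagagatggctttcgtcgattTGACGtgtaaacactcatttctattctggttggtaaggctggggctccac
Plk2: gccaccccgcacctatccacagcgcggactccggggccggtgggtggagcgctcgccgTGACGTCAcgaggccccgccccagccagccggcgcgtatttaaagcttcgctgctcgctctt

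The comparison of WS with NS asked whether the late genes of active neurons differed in stimulated cortex at this time. No rise or fall was detected for any of the 10. In edgeR's quasi-likelihood test, adjusted by Benjamini and Hochberg's method across 13747 genes, 0 of the 10 fell under 0.05, while 0.0364% of all tested genes were called higher and 0.0% lower. Without adjustment, 0 of the 10 were under 0.05 as well, beside 0.866% (higher) and 0.327% (lower) of all tested genes. DESeq2 likewise gave 0 of 10 with adjustment and 0 of 10 without. All adjusted p-values were 0.9998 in edgeR's test. The log2 fold changes lay between -0.15 (Homer1) and 0.10 (Gadd45b), with a median of -0.06 against 0.01 over all tested genes. In the list 9 of the 10 were below 0, while 47.0% of all tested genes were. The 95% intervals of the 10 together ran from -0.47 to 0.38 on the log2 scale, or from 0.723-fold to 1.30-fold, with both ends set by Inhba, the gene with the fewest counts. Doubling or halving of the total mRNA of any of these genes thus lay outside the intervals. Each value is a total over the transcripts of a gene, so changes in a single transcript form are not covered.

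**Figure D2:**
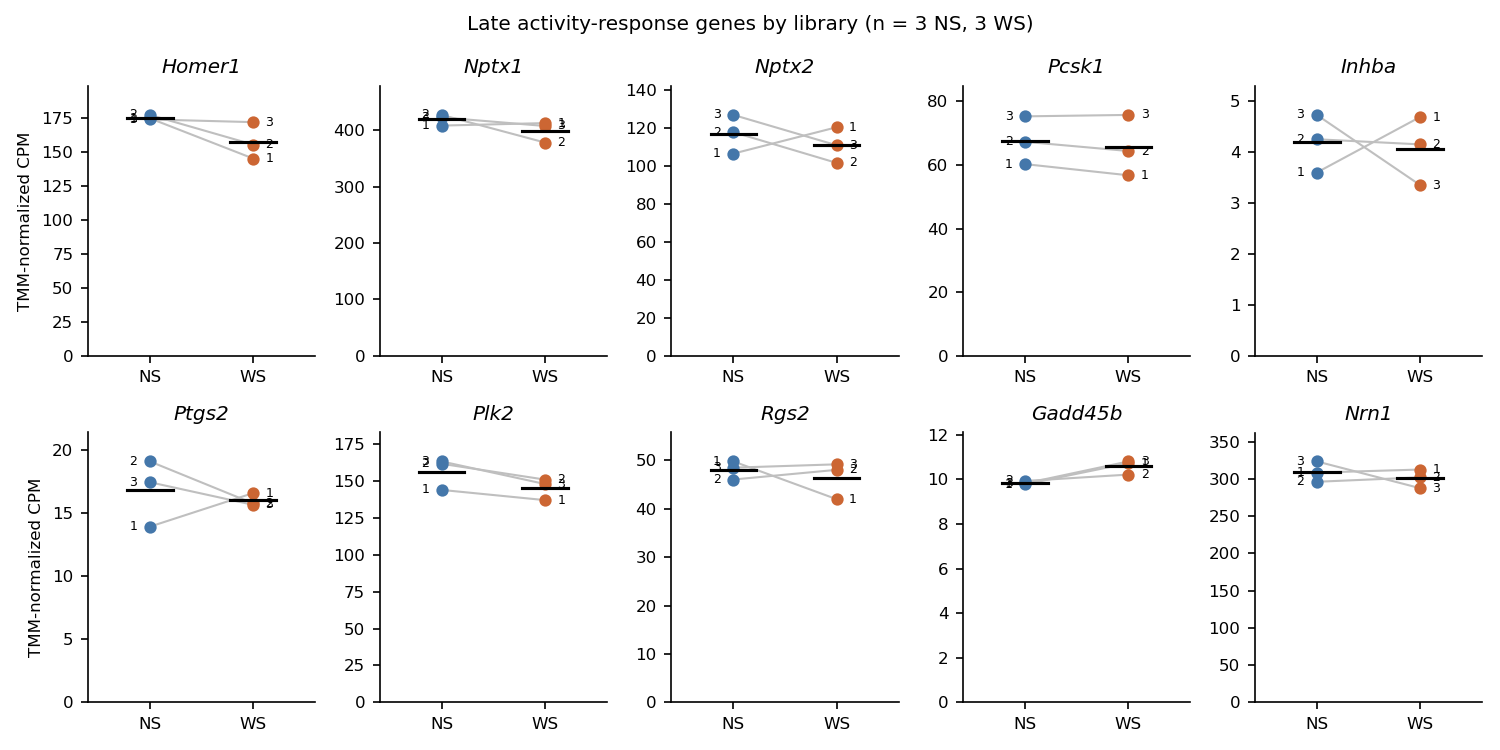
TMM-normalized CPM (axes from 0) of the 10 late response genes in each library, blue for NS and orange for WS, with the library number beside each point, grey lines joining same-numbered libraries and black bars for group means (n = 3 each). In 8 of the panels the NS and WS points overlap, and in Homer1 (WS below) and Gadd45b (WS above) they do not.

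Among the synaptic genes, Homer1 had the largest difference. It encodes a postsynaptic scaffold that ties metabotropic glutamate receptors to Shank proteins, and its short form Homer1a, made in active neurons, competes with the long forms. Homer1 (chromosome 13 of GRCm38, 93299635 to 93405129, plus strand) has 11 protein-coding transcripts in GENCODE M21 that encode between 180 and 370 residues, and the table gives 1 value per gene, so short and long forms cannot be told apart. Its counts were 2767, 2835 and 2795 in NS and 2446, 2508 and 2717 in WS. As CPM these were 174.4, 176.9 and 173.6 in NS and 144.9, 155.1 and 171.6 in WS. Every WS library was below every NS library, WS replicate 3 by little and WS replicate 1 by most. The log2 fold change was -0.15 (standard error 0.08, 95% interval -0.33 to 0.02, adjusted p = 0.9998 in edgeR's quasi-likelihood test). An exact two-sided permutation test over the libraries, without pairs, gave p = 0.10, the smallest that 3 against 3 allow. Any gene whose groups do not overlap has this value. Without WS replicate 3 the log2 fold change was -0.22 (adjusted p = 0.884 in edgeR's quasi-likelihood test, and under 0.05 before adjustment), and without WS replicate 1 it was -0.10. With the dependence on GC content removed from each library (a setting described further on), Homer1 had -0.11 and its groups overlapped. In the annotation Homer1 shares bases of its own strand with the predicted genes Gm47075 and Gm47088, so counts of the 3 may be mixed.

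The pentraxins Nptx1 and Nptx2 are secreted proteins that gather AMPA receptors at excitatory synapses, and Nptx2 is the more strongly activity-regulated of the pair. Nptx1 (chromosome 11, 119538719 to 119547753, minus strand) had 408.1, 427.0 and 422.6 CPM in NS and 412.5, 378.1 and 407.4 in WS. Nptx2 (chromosome 5, 144545902 to 144557478, plus strand) had 106.7, 118.0 and 127.1 CPM in NS and 120.6, 101.8 and 111.1 in WS. In both genes the groups overlapped, with WS replicate 2 lowest of all 6 libraries and WS replicate 1 highest in WS. The log2 fold changes were -0.07 for Nptx1 (95% interval -0.23 to 0.09) and -0.08 for Nptx2 (95% interval -0.28 to 0.12). Over the 6 libraries Nptx1 and Nptx2 were the most alike of the 45 pairs of late genes (Pearson's r of 0.829 on log2 CPM, a description over libraries that share groups and depth). Nrn1 (chromosome 13, 36725361 to 36735131, minus strand) had 308.3, 296.0 and 323.3 CPM in NS and 312.4, 301.9 and 287.4 in WS. Its groups overlapped, and its log2 fold change was -0.04 (95% interval -0.20 to 0.12). Fars2 and Gm30177 lie on the other strand of Nrn1, and no strand setting of the counting is given in the sources used here.

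Of the genes whose products are secreted or cut secreted proteins, Pcsk1 encodes the convertase PC1/3, which cleaves prohormones and neuropeptide precursors in dense core vesicles, and Inhba encodes the activin A subunit. Pcsk1 (chromosome 13, 75089826 to 75134861, plus strand) had 60.27, 67.28 and 75.28 CPM in NS replicates 1, 2 and 3, and 56.76, 64.39 and 75.73 in WS replicates 1, 2 and 3. The groups overlapped fully, and the spread within a group was larger than any difference between same-numbered libraries. The coefficient of variation was 11.1% in NS and 14.5% in WS, while the WS libraries differed from the NS libraries of the same number by -5.83%, -4.29% and 0.592%. The log2 fold change of Pcsk1 was -0.04 (95% interval -0.30 to 0.21), and -0.0057 with the GC dependence removed.

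Inhba (chromosome 13, 16011851 to 16031621, plus strand) was counted 57, 68 and 76 times in NS and 79, 67 and 53 times in WS, which is 3.593, 4.244 and 4.721 CPM in NS and 4.680, 4.144 and 3.347 CPM in WS. Its groups spanned nearly the same range. Counting error alone gives 12.2% at its mean of 66.7 counts, beside a measured spread between samples of 13.5% in NS and 16.5% in WS. The part of counting in that spread was not tested. Its log2 fold change of -0.04 had the widest interval of the set, -0.47 to 0.38. B230303A05Rik and Gm48444 overlap Inhba on the other strand.

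Ptgs2 encodes cyclooxygenase 2, the inducible enzyme of prostaglandin synthesis, which excitatory cortical neurons make in an activity-dependent way. Ptgs2 (chromosome 1, 150100031 to 150108227, plus strand) had 13.93, 19.10 and 17.45 CPM in NS and 16.59, 15.77 and 15.66 in WS. All 3 WS values fell inside the NS range, with NS replicate 1 lowest and NS replicate 2 highest. The log2 fold change was -0.07 (95% interval -0.34 to 0.20), and the coefficient of variation was 15.7% in NS and 3.16% in WS.

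The remaining 3 genes act inside the cell on signalling. Plk2 encodes a polo-like kinase that weakens synapses after long activity by marking the spine protein SPAR for degradation. Plk2 (chromosome 13, 110395046 to 110400844, plus strand) had 143.9, 161.6 and 163.2 CPM in NS and 137.0, 150.9 and 147.9 in WS. Each WS library was below the NS library of the same number, with differences of -4.79%, -6.67% and -9.38%, but the groups overlapped through NS replicate 1. The log2 fold change was -0.11 (95% interval -0.28 to 0.07, adjusted p = 0.9998 in edgeR's quasi-likelihood test). Rgs2 encodes a protein that speeds the shut-off of Gq signals. Rgs2 (chromosome 1, 143999338 to 144004161, minus strand) had 49.80, 46.06 and 48.51 CPM in NS and 42.00, 48.06 and 49.20 in WS. WS replicate 1 was the lowest library and the other WS values lay inside the NS range. Its log2 fold change was -0.05 (95% interval -0.25 to 0.15), and -0.0177 with the GC dependence removed.

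Gadd45b encodes a stress- and activity-induced protein that binds the kinase MAP3K4 and is linked to active DNA demethylation. Gadd45b (chromosome 10, 80930073 to 80932204, plus strand) was counted 155, 159 and 158 times in NS and 181, 165 and 171 times in WS. Its CPM of 9.772, 9.924 and 9.814 in NS all lay below the 10.72, 10.21 and 10.80 in WS. The NS counts lay within 4 of each other, closer than the counting SD of 12.8 at a mean of 164.8 counts. The log2 fold change was 0.10 (standard error 0.11, 95% interval -0.14 to 0.35, adjusted p = 0.9998 in edgeR's quasi-likelihood test), and the exact two-sided permutation test gave p = 0.10, again the smallest possible. With the GC dependence removed, Gadd45b had 0.07 and its groups overlapped.

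In all, Homer1 was the only 1 of the 10 with every WS library below every NS library, beside 3.16% of all tested genes, and Gadd45b the only 1 with every WS library above, beside 3.11%. Compared within same-numbered libraries, WS was lower in 3 of 3 pairs for Homer1 and Plk2, beside 8.57% of all tested genes. WS was higher in 3 of 3 pairs for Gadd45b, beside 9.82%. In 6 of the 10 genes the group means differed by less than the larger of the group SDs. The genes varied in how alike they were over the libraries, and pairs of other genes were not set beside them. The median Pearson's r of the 45 pairs on log2 CPM was 0.204 over 6 libraries, 18 pairs were below 0, and only the pentraxin pair was above 0.8. Within NS, replicate 1 was the lowest library for 7 of the 10 genes. Within WS, the lowest library was replicate 1 for 4 genes, replicate 2 for 3 and replicate 3 for 3. The median coefficient of variation was 5.65% in NS and 6.69% in WS, against 6.08% and 8.89% over 10876 genes averaging 100 counts or more.

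WS replicate 1 differed from the other libraries in how counts depended on the GC content of the transcript. Over 10857 genes, those below the lower quartile of GC content had a median log2 deviation from the gene mean of -0.16 in this library, and those above the upper quartile (54.7%) one of 0.16. The second value minus the first was 0.31 in WS replicate 1, -0.18 in WS replicate 3, and between -0.0798 and 0.0019 in the other 4 libraries. Homer1, at a GC content of 36.9% in its longest transcript and with 0.811% of those genes lower still, deviated by -0.19 in WS replicate 1. Pcsk1 (40.6%) deviated by -0.22 and Rgs2 (43.6%) by -0.17. The GC-rich Nptx2 (58.3%) and Gadd45b (56.9%) deviated by 0.08 and 0.07. Ptgs2 (40.0%), Inhba (41.4%) and Nrn1 (45.7%) did not follow this order, with 0.02, 0.19 and 0.04. Plk2 (48.0%) deviated by -0.14 and Nptx1 (54.9%) by 0.01.

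With each library's GC trend removed, a setting chosen after the data were seen, the groups overlapped in all 10 genes, while every WS library was above every NS library in 3.44% of all tested genes and below in 3.30%. The median of the set was -0.02, and 8 of the 10 were below 0. The largest difference was then in Nptx2, with a log2 fold change of -0.12 (adjusted p = 0.9999 in edgeR's quasi-likelihood test).

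**Figure D3:**
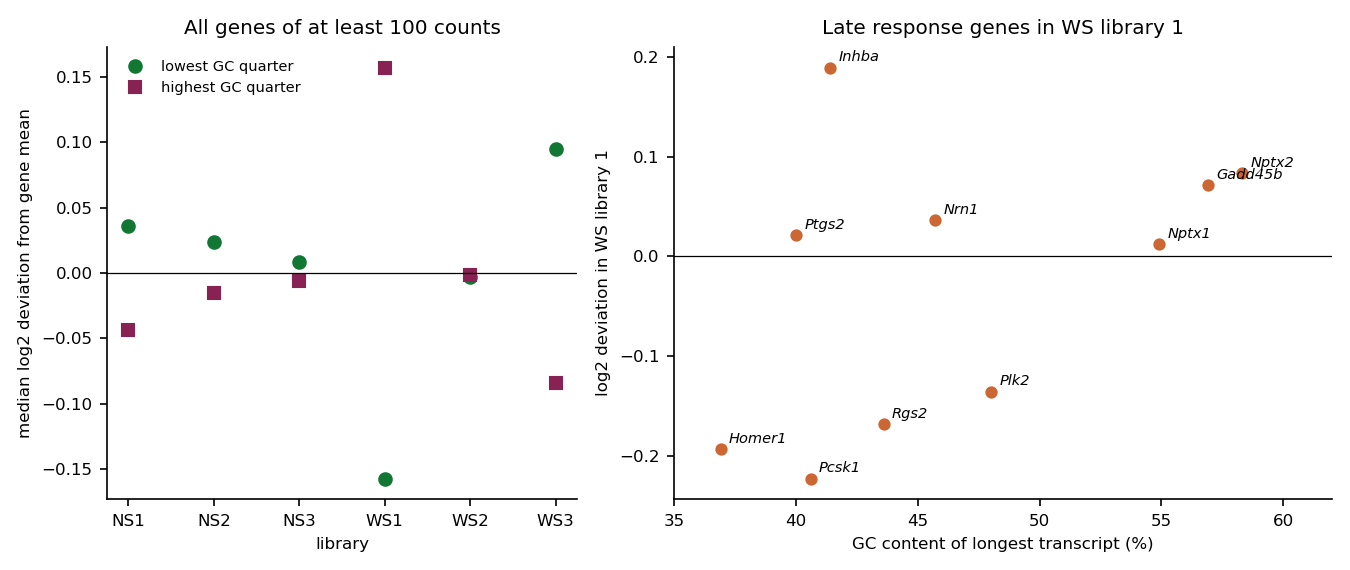
Left, median log2 deviation from the gene mean in each library for genes below the lower and above the upper quartile of GC content (10857 genes), where WS replicate 1 lies at -0.16 and 0.16. Right, log2 deviation of the 10 late response genes in WS replicate 1 against the GC content of the longest transcript, from Homer1 at 36.9% (-0.19) to Nptx2 at 58.3% (0.08).

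In the same libraries some immediate early genes had larger differences, called with a replicate block and not without it, which gives a scale for the late genes. Arc, whose product removes AMPA receptors from synapses, had 123.8, 115.6 and 181.6 CPM in NS and 203.9, 229.4 and 490.4 in WS. Fos had 18.41, 15.04 and 14.85 CPM in NS and 25.06, 28.39 and 45.54 in WS. Egr4 had 55.98, 37.76 and 31.24 CPM in NS and 76.72, 96.93 and 107.0 in WS. All WS libraries were above all NS libraries in these 3 genes. The log2 fold changes of Arc, Fos and Egr4 were 1.13, 1.03 and 1.17, with adjusted p-values of 0.9998, 0.416 and 0.101 in edgeR's quasi-likelihood test. When the replicate number was added to the model as a block, the same test gave Arc, Fos and Egr4 adjusted p-values of 2.2e-06, 5.9e-04 and 3.0e-05. The 95% interval started at 0.52 for Arc, 0.61 for Fos and 0.76 for Egr4, while the highest upper end among the late genes was 0.38. Npas4, a neuron-specific early transcription factor gene upstream of several late genes, had a log2 fold change of -0.0037 (95% interval -0.68 to 0.67). Of the 15 early genes listed, the 12 other than Fos, Arc and Egr4 lay between -0.14 and 0.07, with 11 of 12 below 0. In the blocked fit, 7 of these 12 were above 0 and 5 below, and Npas4 was at 0.03. A difference between the early and the late genes was not tested.

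**Figure D4:**
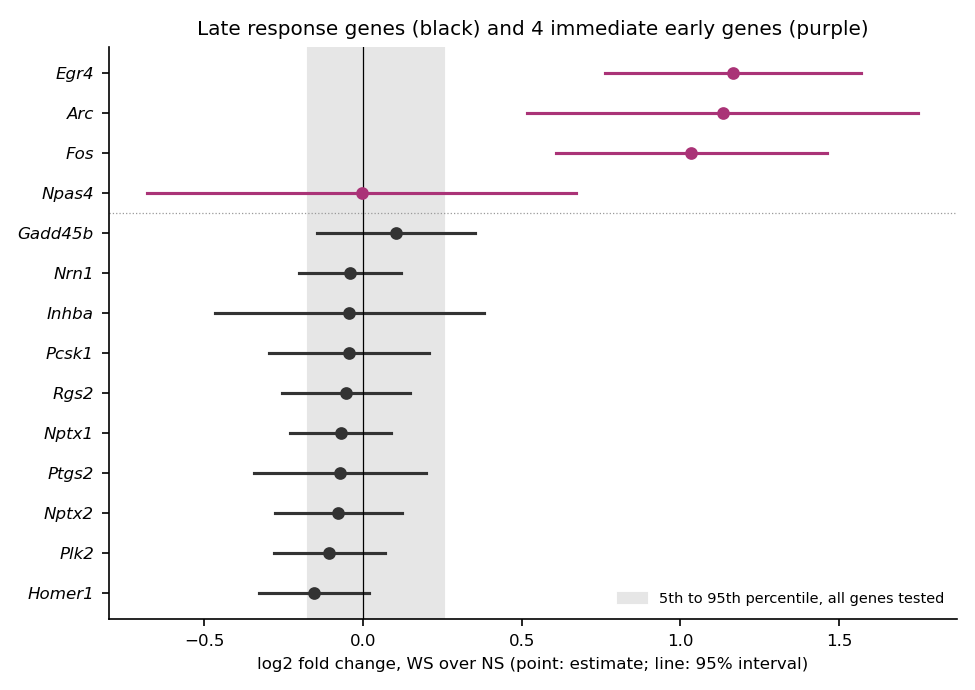
Log2 fold change (WS over NS, points) with 95% intervals (lines) for the 10 late response genes in black and for 4 immediate early genes in purple, with the grey band from the 5th to the 95th percentile of all tested genes (-0.17 to 0.26). The late genes lie between -0.15 and 0.10 inside the band, while Fos, Arc and Egr4 lie above 1.

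Of 87 genes that work with the late effectors or respond late themselves, in 10 lists (Gadd45g stood in a pair of them), 85 were tested. By edgeR's quasi-likelihood test 0 of them were under 0.05 with adjustment and 0 without. With the replicate block 0 were under 0.05 with adjustment, and 2 without (Pcsk1n and Acvr1c), beside 1.77% of all tested genes. Their median log2 fold change was 0.0024, with 45 higher and 40 lower. In 3 of the 85 every WS library was below every NS library, and in 0 every WS library was above, beside 3.16% and 3.11% of all tested genes. These 3 were Rasgrp1, Gria3 and Acvr1c, and like Homer1 each was lowest in WS replicate 1.

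The 19 other late response genes, among them Bdnf, Vgf and Scg2, were at 10 values above 0 and 9 below, and their median log2 fold change was 0.0017. Bdnf, the neurotrophin of active neurons, had 29.76, 31.96 and 30.87 CPM in NS and 27.90, 28.52 and 31.83 in WS. Its groups overlapped, and its log2 fold change was -0.07 (95% interval -0.28 to 0.14). Rasgrp1, a Ras activator, had 608.9, 647.3 and 597.1 CPM in NS and 522.5, 593.1 and 586.6 in WS, a log2 fold change of -0.12 (95% interval -0.30 to 0.05). Of that list's genes averaging 100 counts or more, the kinase gene Sik1 had the largest log2 fold change, 0.16 (95% interval -0.40 to 0.71). Bdnf was picked for display after its values were seen.

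Among the postsynaptic partners, the 9 genes of the Homer list (Homer2, Homer3, receptors and Shanks) had a median of 0.01, with 5 higher and 4 lower. The scaffold gene Shank1 had the largest value, 0.15 (95% interval -0.11 to 0.41). The pentraxin receptor gene Nptxr and the 4 AMPA receptor subunit genes had a median of -0.08, with 2 higher and 3 lower. Gria3 had 230.4, 222.7 and 221.8 CPM in NS and 186.9, 203.1 and 218.8 in WS, with a log2 fold change of -0.15 (95% interval -0.32 to 0.02). As in Homer1, WS replicate 3 was only little below NS.

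The 8 prohormone processing genes had a median of 0.02, with 5 higher and 3 lower, and Pcsk1n, which encodes an inhibitor of the Pcsk1 product, had 1134, 1041 and 1178 CPM in NS and 1676, 1231 and 1061 in WS. WS replicate 1 was high and WS replicate 3 inside the NS range, and the log2 fold change of Pcsk1n was 0.24 (95% interval -0.06 to 0.55). Of 13 activin pathway genes, 12 were tested, with a median of -0.02. Acvr1c, a type I receptor gene, had 13.62, 14.48 and 13.79 CPM in NS and 9.242, 13.30 and 12.25 in WS, a log2 fold change of -0.27 (95% interval -0.57 to 0.03).

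The 10 tested of 11 prostaglandin genes had the highest median of these lists among those with several genes, 0.10, with 8 higher and 2 lower. Of those with at least 100 counts, Ptges2, a prostaglandin E synthase gene, had the largest value, 0.12 (95% interval -0.12 to 0.35). The 5 genes of the polo-like kinase list had a median of -0.0015, and Plk3 had 0.12 (95% interval -0.14 to 0.38). The 11 RGS and Gq genes had a median of -0.05, and Rgs20 had -0.13 (95% interval -0.35 to 0.09). The 6 Gadd45 and Tet genes had a median of 0.06, and Gadd45a had -0.18 (95% interval -0.69 to 0.33). Nrn1l, the paralog of Nrn1 and the single gene of its list, had a mean of 21.2 counts and a log2 fold change of 0.13 (95% interval -0.59 to 0.86).

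**Figure D5:**
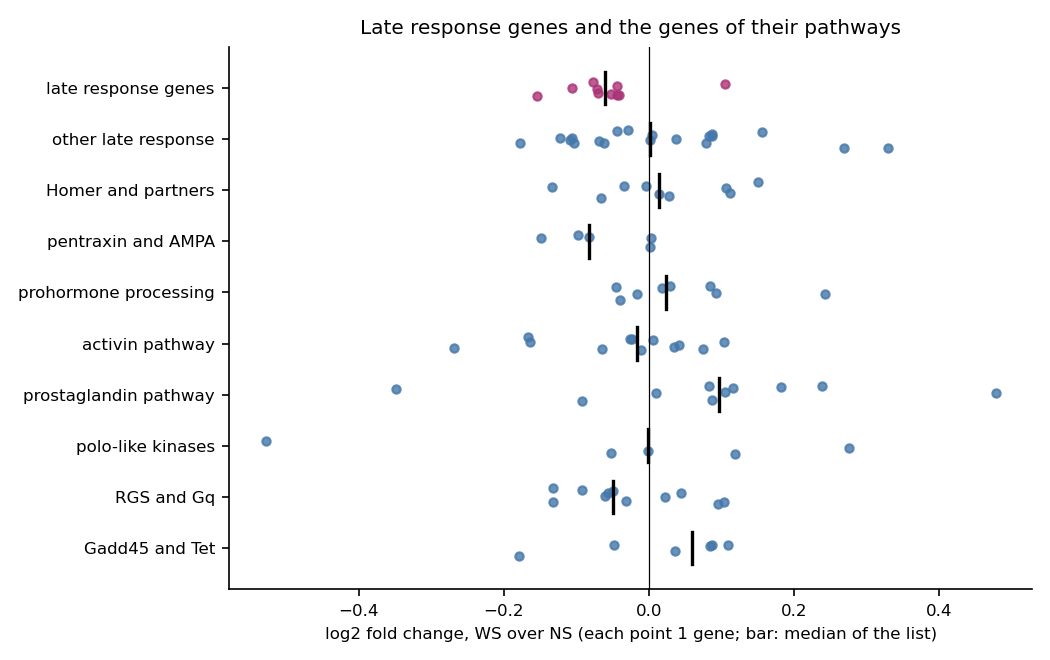
Log2 fold change (WS over NS) of the 10 late response genes (purple) and of the genes in 9 lists of partners (blue), each point 1 tested gene and each black bar the median of its list. List medians lie between -0.08 and 0.10.

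The genes most like each late gene over the libraries were sought by Pearson's r of log2 CPM among 10876 genes averaging 100 counts or more. With 6 libraries and this many genes high values are common, so they are given as a description. Homer1 was nearest to Map4k3, with r of 0.996. For Pcsk1 the nearest were Sorcs1, Sgk1 and Tiparp, with 0.994, 0.990 and 0.987. Nptx1 was nearest to Zfp64 (0.984), Nptx2 to Abca7 (0.972), Inhba to Apbb3 (0.993), Ptgs2 to Usp19 (0.984) and Plk2 to Agbl4 (0.960). Rgs2 was nearest to Fyttd1 (0.993), Gadd45b to Grip2 (0.981) and Nrn1 to Txnl4b (0.992). Tiparp also stands in the list of other late response genes. None of the 10 late genes was among the 3 genes nearest to another of the 10.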

How the data were processed

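Bulk RNA-seq of 6 samples, 3 NS and 3 WS by their titles, was analysed. Reads from rRNA and of low quality were discarded by the authors, who aligned the rest with HISAT2, and mm10 is listed in the submitters' processing notes. The counting tool is not given in the sources used here. The authors deposited for each gene the mean over libraries, an estimated count, with its SD (a signal in counts) and a z-score per library. They also deposited a score column named as a log2 fold change, a p-value, its −log10 and an FDR score, which with a second deposited table of the authors' own comparison were not used. Counts were computed back as mean plus z-score multiplied by SD and rounded, and those of the 10 genes were within 0.146 of a whole number before rounding. The design assumed counts or values from which they are recovered, and the column of WS replicate 3 carries an added letter in its name.

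Fits were made in R 4.3.3 with edgeR 4.0.16 (TMM, filterByExpr, quasi-likelihood test) and DESeq2 1.42.0, and other values in Python 3.11.15 with SciPy 1.17.1. The call was an adjusted p under 0.05. Intervals are 95% t intervals from the fitted standard error. Positions, exon lengths (all exons of a gene joined) and GC content (longest transcript) came from GENCODE M21 on GRCm38, the build mm10 names. The smallest chi-square per degree of freedom between libraries was 4.49, so each counted as 1 replicate. For NS and WS libraries with the same number in their titles, deviations from the group mean correlated over 13747 genes (r = 0.342, 0.228 and 0.124), while r was -0.257 to 0.038 for different numbers. The study's scheme takes the other side of the brain as the control and its legends give as many mice as libraries in a group, but no label ties samples to animals. The numbers were treated as pairs in an alternative fit with a replicate block, and the primary fit had no block. Both were planned. The edgeR test and the GC setting were also run on simulated counts, with outcomes not given here. The GC alternative subtracts each library's spline of log2 deviation on GC content and was added after the data were seen. The genes and lists were chosen with earlier results of these data known. Named genes are the 10 members, the list genes at an unadjusted p under 0.05, the list gene with the largest change among those with at least 100 counts, the 3 most alike genes for each member (the nearest alone for most) and Fos, Arc, Egr4 and Npas4. Rasgrp1, Bdnf, Nrn1l, the named markers and the early genes of the closing section are named outside this rule, after their values were seen.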

Additional observations from a re-analysis of the deposited data

How the results depend on the processing

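Normalization by DESeq2 size factors, upper quartile or library totals, no filter, a mean of at least 10 counts, DESeq2 and an adjusted p under 0.1 left 0 of the 10 late genes called, as did each library left out. With the replicate number as a block, 0 were called, the median log2 fold change of the set was -0.0588 against -0.0612 without it, and no call among the 10 changed. Over these settings other than left-out libraries, no late gene changed sign. With 1 library left out in turn, between 0 and 1 late genes had an unadjusted p under 0.05 (Homer1, without WS replicate 3, where 610 of 13847 genes were), and between 2 and 5 had groups that did not overlap (5 without NS replicate 1, which added Nptx1, Plk2 and Ptgs2, beside 5.75% of all genes above and 5.58% below). The median then ranged from -0.13 to -0.0301, and the log2 fold change from -0.159 to 0.076 for Inhba, -0.159 to 0.0517 for Pcsk1, -0.191 to 0.0284 for Ptgs2 and -0.0962 to 0.0155 for Rgs2. It stayed below 0 for Nptx1 (-0.0935 without WS replicate 1 to -0.04 without WS replicate 2), Nptx2 (-0.14 without NS replicate 1 to -0.015 without NS replicate 3), Plk2 (-0.16 without NS replicate 1 to -0.064 without WS replicate 1) and Nrn1 (-0.0714 without NS replicate 2 to -0.0075 without NS replicate 3). With the GC trend removed, 0 groups did not overlap, and Inhba changed sign to 0.0107, or 0.0014 with the block. Pcsk1 then had -0.0057, Ptgs2 -0.0198, Nrn1 -0.0116, Rgs2 -0.0177, Gadd45b 0.066 and Nptx2 -0.12. The cause of these changes was not tested. Over all genes, 5 were called without the block, 11 with it, 8 by DESeq2, 4 with the GC trend removed, 8 with both, and 0 to 9 with 1 library left out. With 66.7 counts on average, Inhba could show only larger changes than the other genes.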

Other observations

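Several immediate early genes differed more between library numbers than between WS and NS. Nr4a1, an orphan nuclear receptor gene, had 54.34, 116.1 and 213.7 CPM in NS replicates 1, 2 and 3 and 65.88, 108.3 and 194.2 in WS replicates 1, 2 and 3. Dusp1, a MAP kinase phosphatase gene, had 20.61, 40.63 and 63.79 in NS and 22.28, 42.06 and 58.67 in WS. Junb had 49.30, 85.44 and 127.3 in NS and 61.08, 87.09 and 108.6 in WS. Btg2 had 15.63, 24.84 and 40.37 in NS and 17.30, 24.56 and 35.05 in WS. Of the late genes, Pcsk1 had the closest values between libraries of the same number, within 5.83% in each of the 3 pairs. Inhba differed by up to 30.2% within a pair. These genes were picked after their values were seen, and no test was run on the pattern.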
